A study of Schizosaccharomyces pombe with 4 samples.

Results

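The enzymes that detoxify peroxides, superoxide and reactive electrophiles were followed through 10 genes of fission yeast, Schizosaccharomyces pombe, picked by name. They are the glutathione transferase genes gst1, gst2 and gst3, the sulfiredoxin gene srx1, the catalase gene ctt1, the glutathione peroxidase gene gpx1, the peroxiredoxin gene tpx1, the thioredoxin reductase gene trr1, the mitochondrial thioredoxin gene trx2 and the superoxide dismutase gene sod1. All 10 were present among the 5144 protein-coding (mRNA) features of the 7015 features measured, and all 10 held enough reads in every comparison. RNA was sequenced from cultures held in mid-log growth for 3 days at 18 °C in YEA, a rich medium. The labels name a swd22 deletion, an ssu72 deletion, a clr4 deletion and wild type, with 1 library each. Swd22 and Ssu72 belong to CPF, the complex that cleaves and polyadenylates transcripts, and Clr4 is the enzyme that methylates histone H3 in heterochromatin. The deposited values are ratios to 1 further library that the files do not name, called the unnamed reference library here, whose strain and growth conditions are not known. The number of clones or cultures behind a library is not given in the sources used here. With 1 library per genotype no difference has a replicate check, no test of genotype exists, and brackets hold 95% exact counting intervals that cover the counting error of reads only.

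In fission yeast hydrogen peroxide is reduced by catalase, by glutathione peroxidase and by the peroxiredoxin Tpx1, which also passes the peroxide signal on to the transcription factor Pap1 and to the MAP kinase Sty1. Tpx1 draws electrons from thioredoxin and thioredoxin reductase, and sulfiredoxin restores Tpx1 that has been over-oxidised. Superoxide dismutase turns superoxide into hydrogen peroxide, and glutathione transferases couple glutathione to electrophiles. Pap1 and the Sty1-dependent factor Atf1 are the known activators of many of these genes.

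The libraries held 19630981 (swd22 deletion), 24005944 (ssu72 deletion), 22839463 (clr4 deletion), 15282718 (wild type) and 22652585 reads (unnamed reference). The deleted genes were examined first. The gene ssu72 counted 16 reads in the ssu72 deletion and 478 to 740 in the other libraries, and swd22 counted 281 reads in its own deletion and 651 to 787 elsewhere. The clr4 feature spans far more than the coding sequence and held 1645 reads in the clr4 deletion and 1158 to 1445 elsewhere, so it checks nothing, and the group names below stand for the libraries so labelled. The library labelled wild type stood apart in genes that the labels do not mention. There the heterochromatin protein gene swi6 counted 200 reads and the pyrimidine synthesis gene ura4 counted 6, whereas the other libraries held 3601 to 4431 and 1732 to 3961 reads of them. The unnamed reference library stood apart in the coding feature SPBC23G7.13c, with 53 reads there and 0 in each named library. The part of either in the differences below was not tested. Differences of the 10 genes from wild type are therefore given beside those from the unnamed reference library.

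The sequences upstream of the start codons were searched for letters bound by Pap1 (TTACGTAA and TTAGTCA) and by Atf1 (TGACGT), on both strands within 500 bases, in RefSeq assembly ASM294v3. TTACGTAA is its own reverse complement, and none of the 3 motifs contains another. TTACGTAA lay before 1 of the 10 genes, gpx1, and before 0.587% of 5112 coding genes. TTAGTCA lay before gst2 and tpx1 and before 7.57% of coding genes, and TGACGT before gst3 and ctt1 and before 7.98%. The 5 sites are shown because they are the matches near these genes, each as 30 bases read 5′ to 3′ on the strand of the gene, with the motif or its reverse complement in capitals.
gpx1, chrII:2789688-2789717, minus strand: ttttattaattTTACGTAAatttctcttgt
gst2, chrIII:2296194-2296223, minus strand: aaaatgggtgcTGACTAAcaattattacaa
tpx1, chrIII:2085880-2085909, minus strand: cgcctaattatTGACTAAgctcacttgctt
gst3, chrI:3116927-3116956, minus strand: tatttcggtgacTGACGTgcatatgaggtg
ctt1, chrIII:58875-58904, minus strand: attgtgcaaataTGACGTtggtaattctac
The motifs began 159 bases before the start codon in gpx1, 145 in gst2, 284 in tpx1, 149 in gst3 and 427 in ctt1. The windows of srx1, sod1, trr1, trx2 and gst1 held none of these letters. For srx1, which had the widest range of the 10 genes over the 5 libraries, the 200 bases beyond its annotated start are shown in full, with no capitals because no motif was matched.
srx1, chrII:377037-377236, minus strand: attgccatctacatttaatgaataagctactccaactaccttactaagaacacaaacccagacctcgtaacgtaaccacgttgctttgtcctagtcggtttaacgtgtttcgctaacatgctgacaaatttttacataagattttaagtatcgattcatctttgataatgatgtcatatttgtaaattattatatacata
A match describes letters only, and a window without a match says nothing of whether either factor binds there.

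Levels of different genes were compared per length, in RPKM, which scales reads to the library total, as RPM does, and also to the feature's length. The peroxiredoxin gene tpx1 was the most abundant of the 10 in all 5 libraries, with an RPKM of 2011, 2206 and 1531 in the swd22, ssu72 and clr4 deletions, 1245 in wild type and 1461 in the unnamed reference library. The gene gst1 was the least abundant in all 5, with an RPKM of 5.58, 6.72 and 4.48 in the deletions, 2.26 in wild type and 3.27 in the unnamed reference library. Between these extremes the order changed with the library. The gene gst2 came next after tpx1 in each deletion, where it ranked 54, 44 and 65 among the 5144 coding features, against rank 1066 in wild type and 1018 in the unnamed reference library. The sod1 level per length was above that of gpx1 in the 3 deletions and in the unnamed reference library, while in wild type sod1, at 223, lay below gpx1, at 276. Together the 10 genes took 0.535%, 0.622% and 0.472% of all reads in the swd22, ssu72 and clr4 deletions, 0.230% in wild type and 0.277% in the unnamed reference library. Of the reads on the 10 genes, gst2 made up 36.7%, 39.8% and 35.8% in the deletions, 7.92% in wild type and 6.82% in the unnamed reference library.

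**Figure D1:**
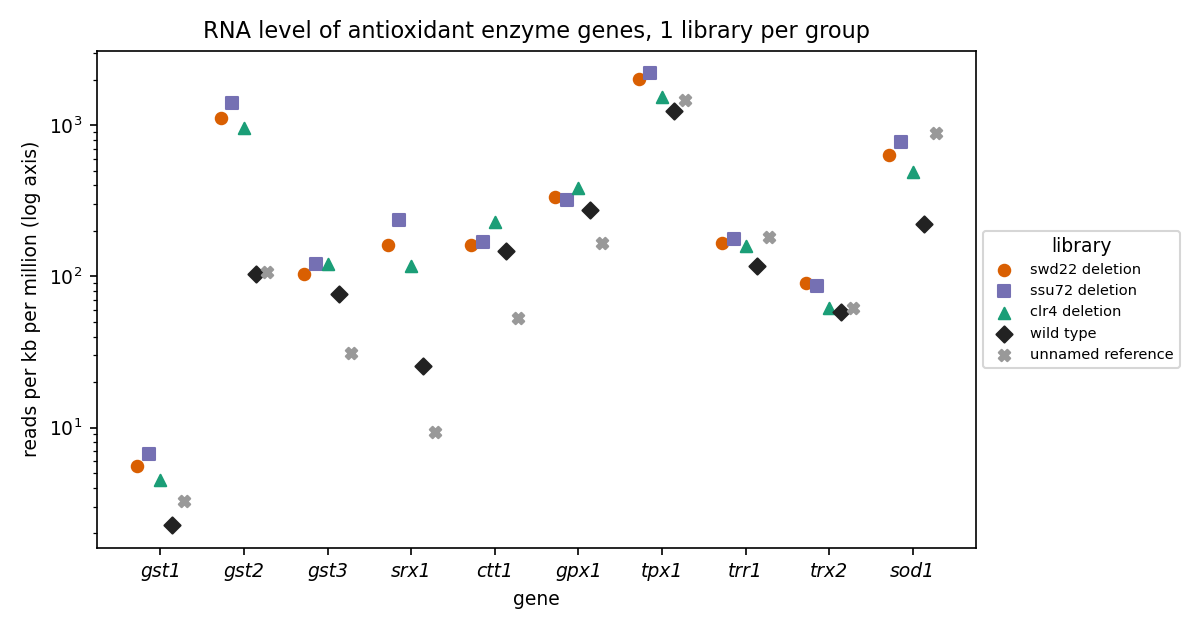
Level of each of the 10 genes (horizontal axis) in RPKM on a log axis, with 1 point for each library. For all genes but trr1 and sod1 the 3 deletion libraries lie above wild type and the unnamed reference library. The gaps are widest for gst2 and srx1. The gene tpx1 is highest throughout, and sod1 is lowest in wild type.

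The 3 glutathione transferase genes differed in their patterns over the libraries. The gene gst2 (chromosome III, 2294617 to 2296383, minus strand) stood at 1964, 2473 and 1688 RPM in the swd22, ssu72 and clr4 deletions, against 182 in wild type and 189 in the unnamed reference library. All 3 deletion libraries were far above both other libraries, which lay close to each other. In bulk RNA, fewer cells that express a gene and less of its RNA per cell cannot be told apart. Against wild type the fold was 10.8 (10.4 to 11.2) in the swd22 deletion, 13.6 (13.0 to 14.1) in the ssu72 deletion and 9.25 (8.90 to 9.62) in the clr4 deletion. Among coding features by fold against wild type, gst2 ranked 24, 18 and 26 from the top in these 3 comparisons. The gst2 folds against the unnamed reference library were close to these, at 10.4 (10.1 to 10.7), 13.1 (12.7 to 13.5) and 8.95 (8.67 to 9.24).

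The gene gst3 (chromosome I, 3115639 to 3116928, minus strand) encodes a more distant transferase, whose coding sequence shares 48.4% of bases with gst2. It stood at 134, 155 and 156 RPM in the swd22, ssu72 and clr4 deletions, against 98.2 in wild type and 40.1 in the unnamed reference library. The widest gap for gst3 lay between the unnamed reference library and the other 4, and wild type was within 1.58-fold of each deletion. Its fold against wild type was 1.36 (1.28 to 1.45), 1.58 (1.48 to 1.67) and 1.58 (1.49 to 1.68) in the swd22, ssu72 and clr4 deletions, and over the unnamed reference library the folds of gst3 were 3.35 (3.10 to 3.61), 3.87 (3.60 to 4.16) and 3.89 (3.61 to 4.19).

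The gene gst1 (chromosome III, 1719143 to 1720128, minus strand) was close to the limit of what these depths resolve, with 108, 159 and 101 reads in the swd22, ssu72 and clr4 deletions, against 34 in wild type and 73 in the unnamed reference library. Its folds against wild type were 2.47 (1.67 to 3.75), 2.98 (2.04 to 4.45) and 1.99 (1.34 to 3.02), and the unnamed reference library gave 1.71 (1.26 to 2.33), 2.06 (1.55 to 2.75) and 1.37 (1.01 to 1.88). An antisense feature that overlaps gst1 by 537 bases counted more reads than gst1 itself in every library, with 269, 272 and 196 in the deletions, against 60 in wild type and 122 in the unnamed reference library. The library kit named in the labels keeps the strand of the RNA, but the strand setting of the counting is not known. The coding sequences of gst1 and gst2 share 76.4% of bases and have no identical run longer than 19 bases, and whether reads of the abundant gst2 were counted for gst1 was not tested.

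Among the peroxide enzymes, the sulfiredoxin gene srx1 (chromosome II, 376253 to 377036, minus strand) varied most. It stood at 126, 184 and 92.3 RPM in the swd22, ssu72 and clr4 deletions, against 19.9 in wild type and 7.28 in the unnamed reference library. Each deletion lay above wild type, and wild type lay above the unnamed reference library, an order also found for gst3, ctt1 and gpx1. Against wild type its fold was 6.35 (5.63 to 7.17), 9.25 (8.23 to 10.4) and 4.64 (4.11 to 5.25), and it ranked 51, 31 and 65 from the top among coding features. With the unnamed reference library as control the folds were 17.4 (14.8 to 20.4), 25.3 (21.7 to 29.7) and 12.7 (10.8 to 15.0). A noncoding RNA on the same strand, SPNCRNA.1350, overlaps the start of srx1 by 61 bases and was also higher, with 321, 339 and 247 reads in the deletions, against 62 in wild type and 86 in the unnamed reference library.

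The substrate of sulfiredoxin, the peroxiredoxin encoded by tpx1 (chromosome III, 2084942 to 2085706, minus strand), varied much less. Its RNA stood at 1539, 1687 and 1171 RPM in the swd22, ssu72 and clr4 deletions, against 953 in wild type and 1118 in the unnamed reference library. The lowest was wild type and the highest the ssu72 deletion. On the log2 scale tpx1 differed from wild type by 0.69 (0.66 to 0.72), 0.82 (0.80 to 0.85) and 0.30 (0.27 to 0.33). Its log2 differences from the unnamed reference library were 0.46 (0.44 to 0.49), 0.60 (0.57 to 0.62) and 0.07 (0.05 to 0.10). Noncoding RNAs beside tpx1 were few in reads, and SPNCRNA.1258, which overlaps its end by 89 bases, counted 165, 163 and 186 in the deletions, against 23 in wild type and 24 in the unnamed reference library. Because tpx1 is so abundant, its counting intervals are narrow, and they say nothing of the spread between cultures.

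Catalase is the enzyme that splits hydrogen peroxide without a reductant. Its gene ctt1 (chromosome III, 56654 to 58865, minus strand) stood at 356, 371 and 504 RPM in the swd22, ssu72 and clr4 deletions, against 326 in wild type and 117 in the unnamed reference library. As with gst3, the unnamed reference library was low and the 4 named genotypes were close to each other, with the clr4 deletion highest. The deposited values leave the absolute reads of ctt1 undetermined, and the smallest whole numbers that give its ratios were taken, which bears on its levels and intervals but not on its ratios. On the log2 scale ctt1 differed from wild type by 0.13 (0.08 to 0.18), 0.19 (0.14 to 0.24) and 0.63 (0.58 to 0.68). Its folds over the unnamed reference library were 3.05 (2.91 to 3.19), 3.17 (3.03 to 3.31) and 4.31 (4.13 to 4.50).

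The gene gpx1 (chromosome II, 2788863 to 2789614, minus strand), which encodes a peroxidase of the glutathione peroxidase family, stood at 253, 239 and 288 RPM in the swd22, ssu72 and clr4 deletions, against 208 in wild type and 126 in the unnamed reference library. It followed ctt1 in having its highest value in the clr4 deletion and its lowest in the unnamed reference library. On the log2 scale gpx1 differed from wild type by 0.29 (0.22 to 0.35), 0.20 (0.14 to 0.27) and 0.47 (0.41 to 0.53). Over the unnamed reference library its folds lay around the threshold, at 2.02 (1.93 to 2.11), 1.91 (1.82 to 1.998) and 2.29 (2.20 to 2.40).

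Neither gene of the thioredoxin system reached 2-fold in any comparison. The gene trr1 (chromosome II, 4189144 to 4191448, plus strand), for the reductase that keeps thioredoxin reduced, stood at 382, 405 and 364 RPM in the swd22, ssu72 and clr4 deletions, against 272 in wild type and 417 in the unnamed reference library. Wild type was the low library here and the other 4 lay close together. The fold of trr1 against wild type was 1.41 (1.35 to 1.46), 1.49 (1.44 to 1.55) and 1.34 (1.29 to 1.39), whereas its log2 differences from the unnamed reference library were -0.13 (-0.17 to -0.08), -0.04 (-0.08 to 0.00032) and -0.19 (-0.24 to -0.15). An antisense feature that overlaps trr1 by 1620 bases counted 411, 540 and 398 reads in the deletions, against 236 in wild type and 420 in the unnamed reference library, and it was lowest in wild type per library total as well. The gene trx2 (chromosome II, 2317361 to 2318581, minus strand), for the thioredoxin of mitochondria, stood at 111, 105 and 76.0 RPM in the deletions, against 71.1 in wild type and 75.4 in the unnamed reference library. Both CPF deletions were above the other 3 libraries. The trx2 folds against wild type were 1.56 (1.45 to 1.68) in the swd22 deletion and 1.48 (1.38 to 1.59) in the ssu72 deletion, and those over the unnamed reference library 1.47 (1.38 to 1.57) and 1.40 (1.32 to 1.49). In the clr4 deletion the trx2 fold was 1.07 (0.990 to 1.15) against wild type and 1.01 (0.943 to 1.08) against the unnamed reference library, so that neither difference was beyond counting error.

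The direction of the sod1 difference depended on the control. The gene sod1 (chromosome I, 1002838 to 1003600, minus strand), for the copper and zinc enzyme, stood at 482, 591 and 375 RPM in the swd22, ssu72 and clr4 deletions, against 171 in wild type and 680 in the unnamed reference library. The library labelled wild type was lower than all 4 others. Folds against wild type were 2.83 (2.71 to 2.95), 3.46 (3.32 to 3.61) and 2.20 (2.10 to 2.30), and those over the unnamed reference library were 0.710 (0.692 to 0.729), 0.870 (0.850 to 0.890) and 0.552 (0.537 to 0.566). In all 3 deletions sod1 was thus higher than in wild type and lower than in the unnamed reference library.

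Counted at a fold of at least 2, 4 of the 10 genes were higher in the swd22 deletion than in wild type (gst1, gst2, srx1 and sod1), while 6.48% of 5048 coding features and 9.91% of all features were. The same 4 genes were higher in the ssu72 deletion, where the share was 6.1% of 5050 coding features and 10.6% of all features. In the clr4 deletion 3 were higher (gst2, srx1 and sod1), with 5.4% of 5056 coding features and 9.27% of all features. The clr4 value of gst1, at 1.99, lay just under the threshold. None of the 10 was at least 2-fold lower in any of these comparisons, where 1.72%, 2.87% and 1.23% of coding features and 2.91%, 3.55% and 2.24% of all features were. All 10 genes lay above 0 on the log2 scale in each comparison, with medians of 0.67, 0.74 and 0.65, where all coding features had medians of 0.03, -0.02 and -0.03. The 3 comparisons share the wild type library, so that its values enter each of them.

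**Figure D2:**
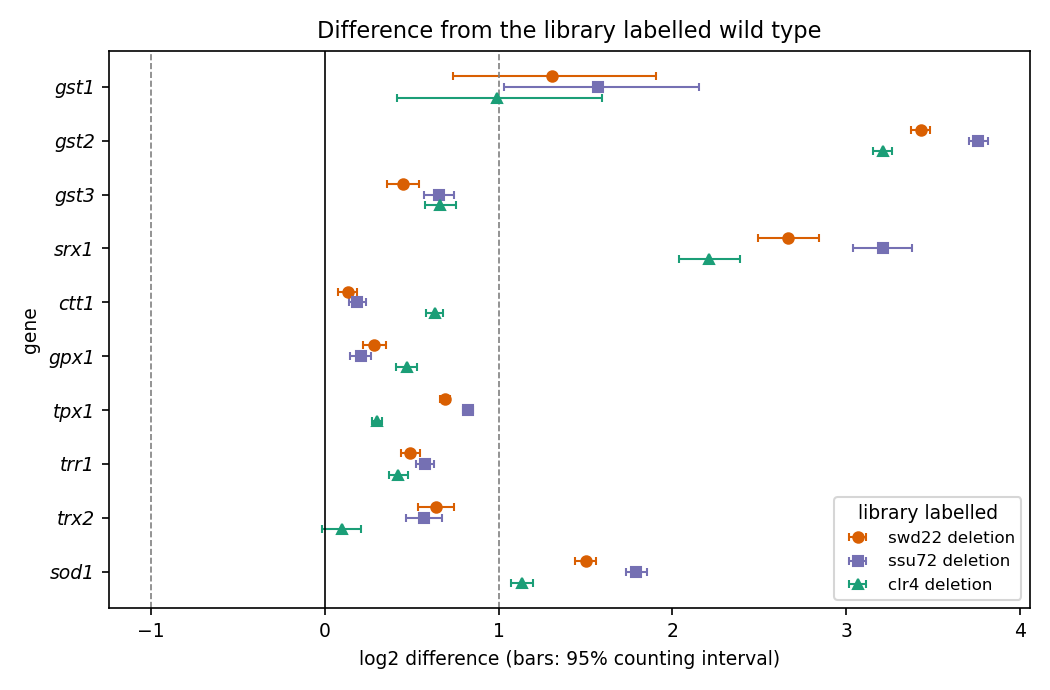
Log2 difference of each gene between a deletion and the library labelled wild type, with 1 point per deletion, bars for 95% counting intervals and dashed lines at 2-fold. The points of gst2 lie between 3.21 and 3.76, those of srx1 between 2.21 and 3.21, and no point lies below 0.

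With the unnamed reference library as control, 5 of 10 genes were at least 2-fold higher in the swd22 deletion (gst2, gst3, srx1, ctt1 and gpx1), against 8.89% of 5041 coding features and 11.3% of all features. In the ssu72 deletion 5 were higher (gst1, gst2, gst3, srx1 and ctt1), against 8.39% of 5042 coding features and 11.9% of all features, and in the clr4 deletion 5 (gst2, gst3, srx1, ctt1 and gpx1), against 8.13% of 5056 coding features and 11.1% of all features. None was at least 2-fold lower, where 2.34%, 2.4% and 1.74% of coding features and 4.3%, 3.79% and 3.14% of all features were. The medians were 0.89, 0.99 and 0.83 on the log2 scale, beside 0.06, -0.01 and -0.01 for all coding features. With this control 8 of the 10 genes lay above 0 in each deletion, and 2, trr1 and sod1, lay below. The genes at 2-fold in all 3 deletions against both controls were gst2 and srx1.

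**Figure D3:**
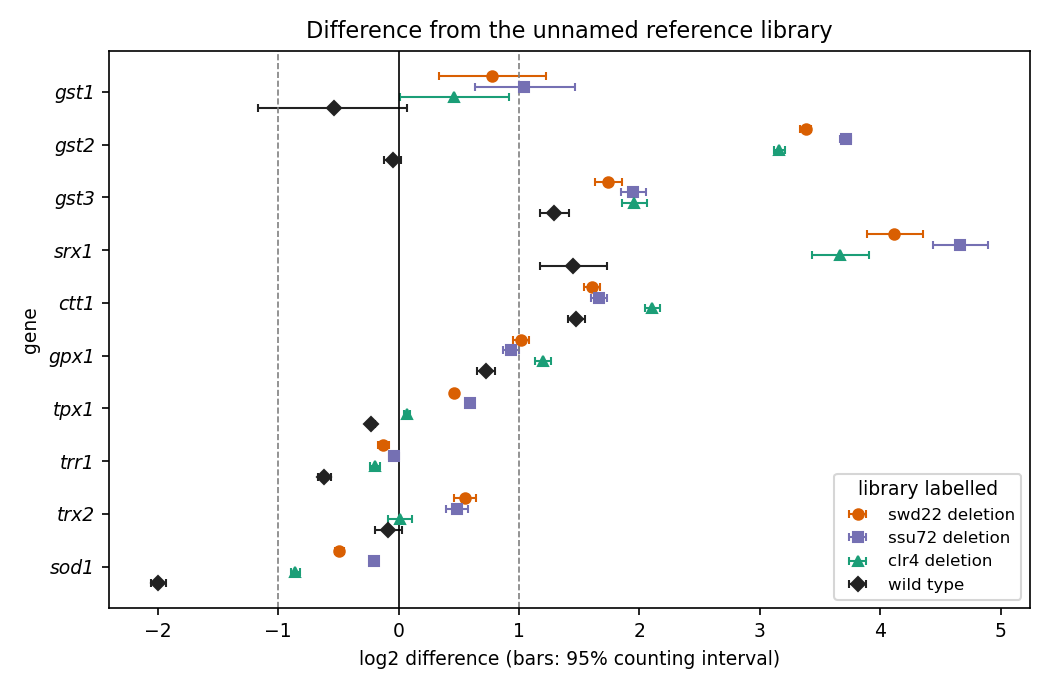
Log2 difference of each gene between a named library and the unnamed reference library, with 1 point per library, bars for 95% counting intervals and dashed lines at 2-fold. For gst3, srx1 and ctt1 wild type lies beyond 2-fold higher together with the deletions, for gst2 it lies near 0 apart from them, and for sod1 it is the lowest point at -1.99.

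Wild type itself differed from the unnamed reference library by at least 2-fold in 4 of the 10 genes. The genes gst3, srx1 and ctt1 were higher, with folds of 2.45 (2.26 to 2.67), 2.74 (2.26 to 3.33) and 2.79 (2.66 to 2.92), and sod1 was lower, at 0.251 (0.241 to 0.262). Of 5043 coding features 5.43% were higher and 2.86% lower, and of all features 7.24% and 6.55%. Among coding features sod1 ranked 30 from the bottom. For gst2 the fold was 0.967 (0.921 to 1.01) and for trx2 0.944 (0.874 to 1.02), both within counting error.

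Over all features the deletions of the CPF subunits were close to each other. None of the 10 genes differed 2-fold between the ssu72 and the swd22 deletion. Among 5041 coding features 0.476% were higher and 1.09% lower, and among all features 1.29% and 1.31%. Shares this low leave the count of the 10 genes uninformative. The genes srx1, gst2 and sod1 were higher in the ssu72 deletion, by 1.46 (1.39 to 1.53), 1.26 (1.24 to 1.27) and 1.23 (1.19 to 1.26) fold. They ranked 87, 218 and 273 from the top among coding features. The trx2 fold of 0.953 (0.900 to 1.01) was within counting error. Its log2 value of -0.07 became 0.01 when libraries were scaled by the median ratio of coding features.

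Features beside the 10 genes were measured too. The aldo-keto reductase gene osr2 lies tail to tail with gst2, 42 bases away on the other strand. It was also higher in the deletions, with log2 differences from wild type of 2.14, 2.22 and 1.48, smaller than those of gst2 at 3.43, 3.76 and 3.21. The kinase gene mph1, which overlaps the end of srx1 by 40 bases on the other strand, was at -0.10, -0.23 and -0.10. The other overlapping features were slx4, by 49 bases at gst3, at -0.57, -0.31 and 0.95, gem7, by 25 bases at gpx1, at 0.31, 0.50 and -0.05, and srb11, by 294 bases at trx2, at -0.03, -0.07 and 0.25. The noncoding RNA SPNCRNA.1259 overlaps tpx1 by 9 bases and counted 47, 69 and 63 reads in the deletions, against 13 in wild type and 40 in the unnamed reference library. Whether the neighbouring values of gst2 and osr2 are linked was not tested.

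To place gst2, srx1 and ctt1 among other genes, the 4 log2 ratios of each library to the unnamed reference library were compared across 4819 coding features with at least 100 reference reads, and likeness was measured as Euclidean distance over these 4 values. Nearest to gst2 were SPCC569.09 at 0.69, ecl1, which is known for extending chronological lifespan, at 0.79, and the aldo-keto reductase gene SPBC215.11c at 1.07. The ecl1 log2 ratios were 3.88, 4.06 and 3.51 in the swd22, ssu72 and clr4 deletions and 0.32 in wild type, and those of gst2 were 3.38, 3.71, 3.16 and -0.05. Nearest to srx1 were SPCPB16A4.06c at 0.60, SPCC737.04 at 1.12 and the metallothionein gene zym1 at 1.17. Nearest to ctt1 were SPBC11C11.06c at 0.35, SPBC725.10 at 0.39 and cgs1, the regulatory subunit of the cAMP-dependent kinase, at 0.41. The ctt1 neighbours were all above the unnamed reference library in wild type as well, with log2 ratios of 1.37, 1.55 and 1.78.

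Other genes of redox defence were taken from a written list of 42 names, which matched 39 genes, 1 name having no match and others being older names. Against wild type, 5 of the 39 were at least 2-fold higher and 1 lower in the swd22 deletion, 5 higher and 1 lower in the ssu72 deletion, and 4 higher and 1 lower in the clr4 deletion. As shares these were 12.8%, 12.8% and 10.3% higher and 2.56% lower each, where 6.48%, 6.1% and 5.4% of coding features and 9.91%, 10.6% and 9.27% of all features were higher. The shares of lower features were 1.72%, 2.87% and 1.23% among coding features and 2.91%, 3.55% and 2.24% among all features. In each deletion the 1 lower list gene was gto2, which is described as an alpha-glucosidase. The list medians were 0.19, 0.21 and 0.33 on the log2 scale. With the unnamed reference library as control, 8 of the 39 were at least 2-fold higher in the swd22 deletion, 9 in the ssu72 deletion, 8 in the clr4 deletion and 3 in wild type, with none lower. These shares of 20.5%, 23.1%, 20.5% and 7.69% stand beside 8.89%, 8.39%, 8.13% and 5.43% of coding features and 11.3%, 11.9%, 11.1% and 7.24% of all features.

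The largest difference from wild type on the list was that of caf5, described in the files as a spermine family transporter gene. It counted 10992, 19427 and 13254 reads in the swd22, ssu72 and clr4 deletions, against 579 in wild type and 724 in the unnamed reference library. Wild type and the unnamed reference library were close, with a fold of 1.19 (1.06 to 1.33) between them, as they were for gst2. The caf5 folds against wild type were 14.8 (13.6 to 16.1), 21.4 (19.7 to 23.2) and 15.3 (14.1 to 16.7). The gene obr1, known as a target of Pap1, was at 4.08 (3.95 to 4.21), 6.14 (5.96 to 6.33) and 4.22 (4.10 to 4.36) fold. The remaining transporter genes tied to Pap1, pmd1 and bfr1, did not reach 2-fold. The metallothionein gene zym1 was at 2.53 (2.23 to 2.88), 6.62 (5.90 to 7.45) and 4.64 (4.13 to 5.24) fold, and it was the list's 1 gene that differed 2-fold between the CPF deletions, at 2.61 (2.44 to 2.80) fold higher in ssu72. For caf5, obr1 and zym1 every deletion was also at least 2-fold above the unnamed reference library, and zym1 was 4.36 (3.50 to 5.47) fold above it in wild type as well.

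Other calls on the list held in fewer comparisons. The glutaredoxin gene grx5 and the transaldolase gene tal1 passed 2-fold in the swd22 deletion, at 2.24 (2.08 to 2.41) and 2.07 (2.02 to 2.11). The methionine sulfoxide reductase gene mxr2 and the glucose-6-phosphate dehydrogenase gene zwf1 passed in the ssu72 deletion, at 2.21 (2.05 to 2.39) and 2-fold (1.95 to 2.06), and the cytosolic thioredoxin gene trx1 in the clr4 deletion, at 2.39 (2.32 to 2.46). Over the unnamed reference library the same deletions gave folds of 1.59 for grx5, 1.65 for tal1, 2.39 for mxr2, 2.38 for zwf1 and 2.67 for trx1. The gene gto2 was the 1 lower gene in each deletion, with 1506, 1592 and 1997 reads, against 3452 in wild type and 879 in the unnamed reference library, and its log2 differences from wild type were -1.56, -1.77 and -1.37, so that the deletions lay between these libraries. The files describe gto1 and gto2 as alpha-glucosidases, so that these names entered the list without being transferases there. The zwf1 call ended when libraries were scaled by reads on coding features, which put it at 0.98 on the log2 scale. None of the 12 regulator genes reached 2-fold against wild type on the deposited scale, and the MAP kinase kinase gene wis1, at -0.98 in the swd22 deletion, passed it at -1.02 when libraries were scaled by the median ratio of coding features. Their medians were -0.23, -0.32 and -0.09, and pap1 itself was at 0.90 (0.83 to 0.97), 0.76 (0.69 to 0.82) and 0.81 (0.74 to 0.88) on the log2 scale. Over the unnamed reference library the regulator gene pcr1 did pass 2-fold, at 2.12, 2.26 and 2.35 in the swd22, ssu72 and clr4 deletions. In wild type its fold was 1.79. None of the 3 genes of glutathione synthesis and recycling reached 2-fold against wild type. The glutathione reductase gene pgr1 was at 0.76, 0.94 and 0.57 on the log2 scale, and the synthesis genes were closer to 0, with gcs1 at -0.06, 0.01 and 0.15 and gsa1 at 0.24, 0.16 and 0.05. The pgr1 folds over the unnamed reference library were 2.21, 2.52 and 1.94 in the swd22, ssu72 and clr4 deletions.

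**Figure D4:**
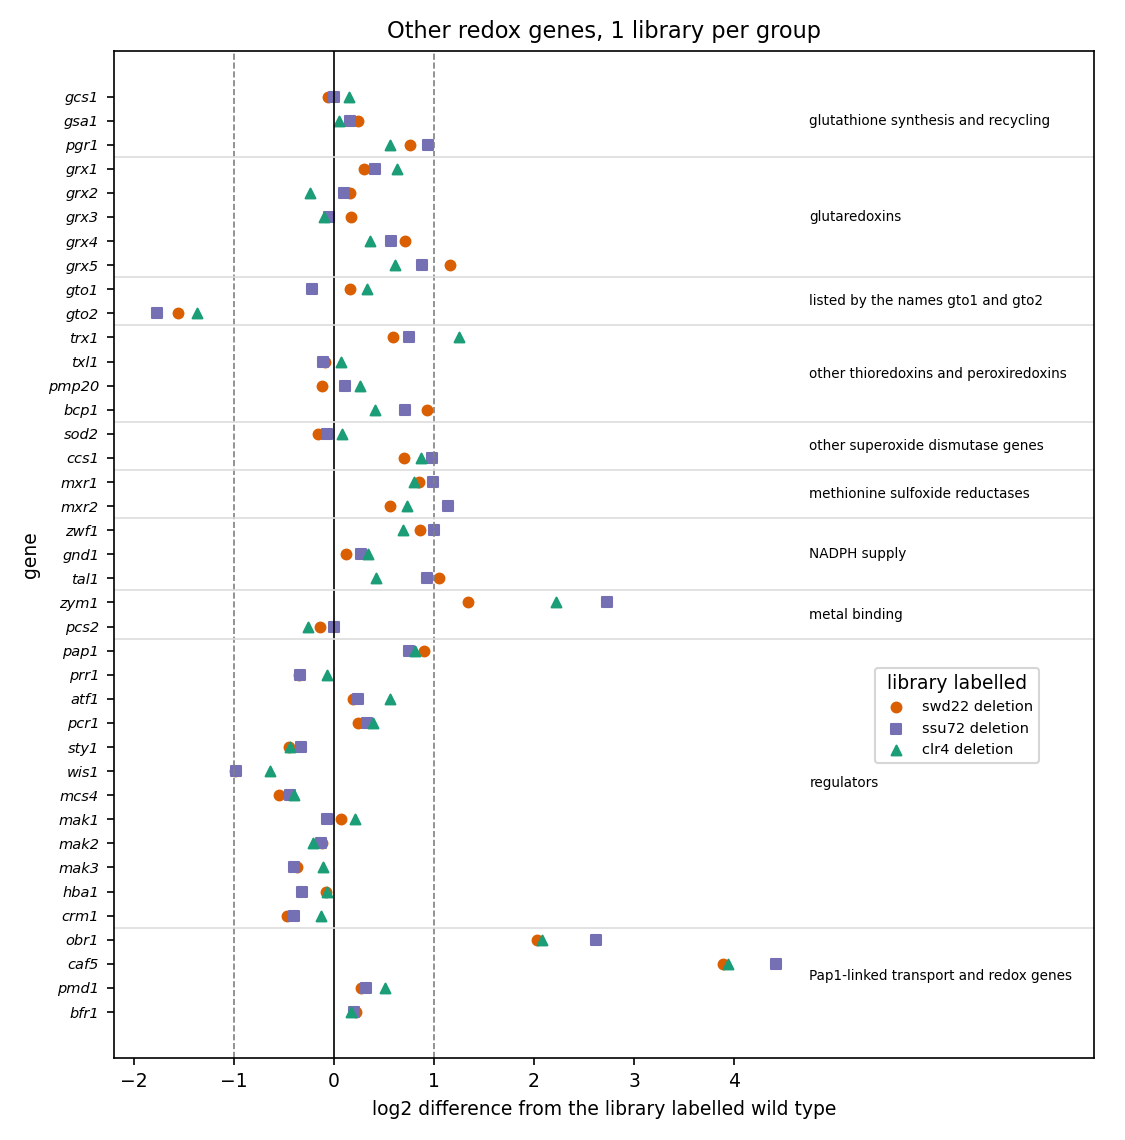
Log2 difference of the 39 genes of the redox list between each deletion and the library labelled wild type, in groups separated by grey lines, with 1 point per deletion and dashed lines at 2-fold. Of these, gto1 and gto2 are described as alpha-glucosidases. The genes caf5, obr1 and zym1 lie beyond 2-fold higher in all 3 deletions, gto2 beyond 2-fold lower, and the 12 regulators lie between the dashed lines, with wis1 at -0.98 in the swd22 deletion closest to one and past it, at -1.02, under median ratio scaling.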

How the data were processed

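Per the submitters' processing notes, reads were handled with Trimmomatic and STAR, with no version stated. The sources used here do not give the counting program, its strand setting or the genome build. For every feature of a library the authors deposited 2 values, per the file headers, a log2 ratio and its p-value. The deposited p-values carry no biological spread and were not used as tests. Reads of 6565 features were solved from both values under a random sampling model. A further 88 features were solved without p-values, and 362 stayed unsolved. In each library 100% of the low counts examined came out whole within 0.05 reads. On the log10 scale 100% of the 6271 to 6417 deposited p-values examined were matched within 1 percent. The solving itself used the wholeness of low counts and these p-values, so neither figure is a separate check. The solving was tested on simulated data, which were made with the same sampling model and so do not check the model itself.

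Differences are log2 ratios of these reads on the deposited scale, where the higher library held at least 10 reads. Intervals are Clopper-Pearson at 95%, and reads without molecular identifiers need not come from independent molecules. Coordinates are those of the files, and 99.3% of 5006 coding features matched by name, all 10 genes included, share a start or an end with RefSeq ASM294v3. Python 3.11.15 with scipy 1.17.1 was used. The genes, lists and rules were chosen with earlier results of these data known. Named are all 10 genes, list genes at 2-fold against wild type, the 3 nearest features to gst2, srx1 and ctt1, and features that overlap the 10 genes. The gene osr2 was named after its values were seen. So were, from the list, pap1, pcr1, wis1, ccs1, mxr1, pmd1, bfr1 and the glutathione synthesis and recycling genes.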

Additional observations from a re-analysis of the deposited data

How the results depend on the processing

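No paired analysis was possible because each genotype has 1 library, and for the same reason no library could be left out. Using the unnamed reference library in place of wild type reversed sod1, to log2 differences of -0.49 in the swd22 deletion, -0.20 in the ssu72 deletion and -0.86 in the clr4 deletion, and changed the sign of trr1, which was below 2-fold throughout. With that control, 5 genes in place of 3 were at least 2-fold higher in the clr4 deletion. At a threshold of 1.5-fold, 6 genes were higher in the clr4 deletion and 2 lower in wild type than in the unnamed reference library. The other counts of the 10 genes stayed within 1.5 times under the alternatives tried, but the genes counted changed with the control. Only gst2 and srx1 were at 2-fold in all 3 deletions with both controls. For the redox list, alternatives were chosen after seeing the data. With the unnamed reference library as control, 8, 9 and 8 list genes were higher and 0 lower in the swd22, ssu72 and clr4 deletions. At 1.5-fold, 13, 13 and 11 were higher and 2 lower in each, 3 were higher in the ssu72 than in the swd22 deletion, and 6 in wild type than in the unnamed reference library. Both other scalings gave 2 lower list genes in the swd22 deletion, and scaling by reads on coding features ended the zwf1 call in the ssu72 deletion. Median ratio scaling put ccs1 and mxr1 past 2-fold higher in the ssu72 deletion, at 1.02 and 1.04 on the log2 scale. Other scalings moved differences by at most 0.08. The minimum of reads, the value for 0 reads and the deposited values moved none, an outcome fixed in advance. None of the 10 genes had 0 reads or fell below a minimum of 50, and the reads were solved from the deposited values. Summing gst1 and gst2 moved gst1 by up to 2.21. Depth limits gst1 most, with 34 reads in wild type.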
